A study of Homo sapiens with 18 samples.

Results

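GAPDH, TUBA1B and TUBB are among the genes whose products are most often used as loading or reference controls, and in the deposited count table the bulk of the counts at these loci stood under other names. The rows described here are the 3 gene rows and, for each, the row annotated on the other strand: RP5-940J5.9 opposite GAPDH, RP11-386G11.10 opposite TUBA1B and XXbac-BPG252P9.9 opposite TUBB. They were chosen by name, with earlier results of these data known. They make up 6 of the 57773 rows of the table and 3 of the 1193 pairs of rows with exons on opposite strands in which both rows passed the filter on low counts. All 6 rows passed that filter, which asked for at least 10 counts in at least 3 libraries and kept 5816 rows.

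The libraries came from RWPE1, an established line of benign human prostate epithelium, carrying 1 of 3 stably introduced MACC constructs. Each construct joins the DNA-binding domain of the androgen receptor to ERT2, the part of the estrogen receptor that tamoxifen switches on, and to an effector. The effector was an epitope tag alone (3X FLAG) in the neutral line, the KRAB repressor domain in the repressive line and the VP64 activator in the activating line, and each line was given ethanol vehicle or tamoxifen for 48 hours, with 3 biological replicates in each of the 6 groups. For the tamoxifen dose, 1.5 uM stands in the treatment field and 1.25 uM in the protocol field. All lines carry ERT2 and were selected with blasticidin, so that no group is a parental line. Total counts per library were 675609 to 792282. Of the basal epithelial markers, 8 of 8 passed the filter, against 5 of 8 luminal, 0 of 7 fibroblast and smooth muscle, 1 of 6 leukocyte, 0 of 3 endothelial and 0 of 4 neuroendocrine markers in the table. ZNF10, the gene from which KRAB domains of this kind are usually taken, had 2 to 16 counts in the libraries of the repressive line and 0 counts in those of the other lines.

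GAPDH is the glycolytic enzyme that oxidises glyceraldehyde 3-phosphate, and its messenger RNA is abundant in nearly all cells. TUBA1B and TUBB encode an alpha- and a beta-tubulin, which pair to form the dimer from which microtubules are built. All of these belong to families with many near-identical members or pseudogenes, so that short reads can be hard to place. Antisense long noncoding RNAs are transcripts read from the other strand of a gene. Where their exons lie over the exons of the gene, a read wholly within the shared stretch can be placed only by its strand.

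In GRCh37, GAPDH (ENSG00000111640) lies on the plus strand of chromosome 12 from 6643678 to 6647540. RP5-940J5.9 (ENSG00000269968) lies on the minus strand from 6646960 to 6647536, and 100% of its 422 exonic bases are opposite GAPDH exons, 219 of them opposite coding bases. TUBA1B (ENSG00000123416) lies on the minus strand of chromosome 12 from 49521565 to 49525180. RP11-386G11.10 (ENSG00000258017, named TUBA1B-AS1 in the annotation used here) runs on the plus strand from 49521565 to 49582267, and 1571 of its 4620 exonic bases are opposite TUBA1B exons, with 68 further bases opposite TUBA1A. TUBB (ENSG00000196230) lies on the plus strand of chromosome 6 from 30685212 to 30693315. XXbac-BPG252P9.9 (ENSG00000272540) is 1 exon of 773 bases on the minus strand from 30690882 to 30691654, of which 538 bases are opposite coding bases of TUBB.

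**Figure D1:**
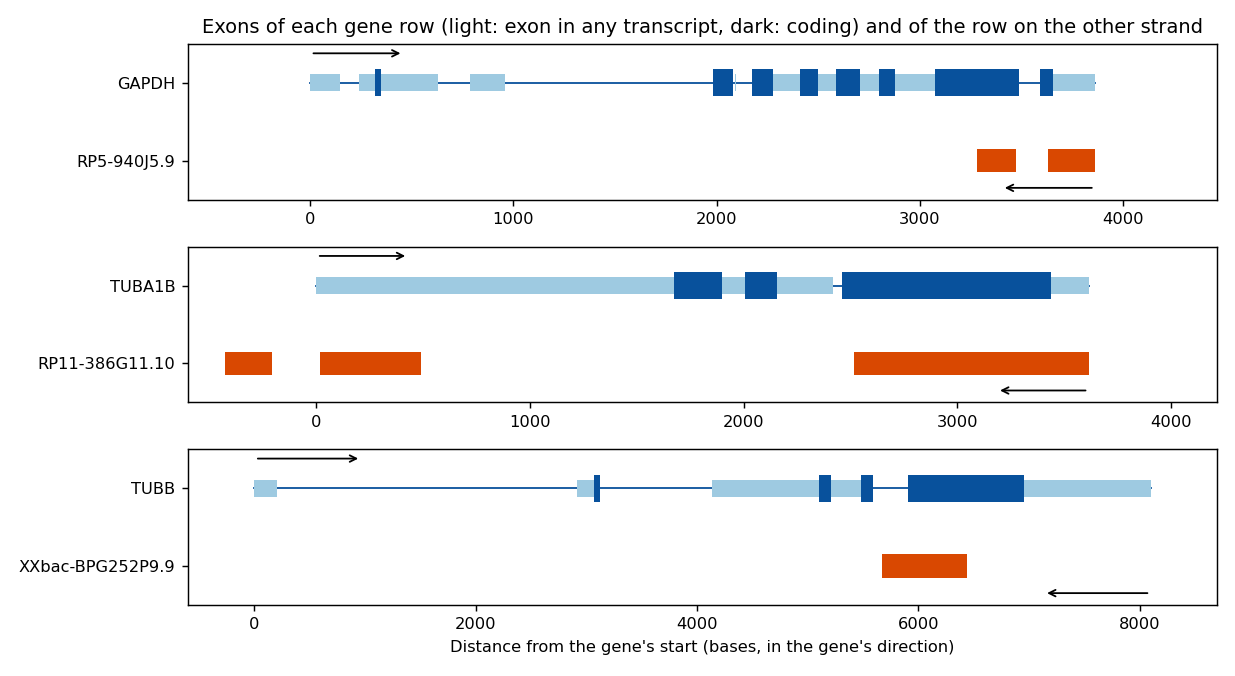
Exons of GAPDH, TUBA1B and TUBB (blue, coding parts dark) and of the row on the other strand (orange), against the distance in bases from the start of the gene in its own direction; arrows show the direction of each row. RP5-940J5.9 and XXbac-BPG252P9.9 lie past the middle of the gene and RP11-386G11.10 over both ends of it, with 422, 538 and 1571 shared exonic bases.

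The first 60 bases of RP5-940J5.9 in genome order lie at chr12:6646960-6647019 and are coding in GAPDH. They are shown as they read on each strand, since within this stretch the strand alone separates the rows:
GAPDH: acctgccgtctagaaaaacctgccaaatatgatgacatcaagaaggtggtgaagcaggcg
RP5-940J5.9: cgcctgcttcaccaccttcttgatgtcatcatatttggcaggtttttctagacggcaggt

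At each of the 3 loci the opposite row held most of the counts. GAPDH had a mean of 328 counts (213 to 389 over 18 libraries), and RP5-940J5.9 had 27218 ± 2160 counts (SD, n = 18). TUBA1B had 21.6 ± 7.62 counts against 23351 ± 4013 in RP11-386G11.10. TUBB had 36.2 ± 6.28 counts against 8547 ± 916 in XXbac-BPG252P9.9. By mean count, RP5-940J5.9, RP11-386G11.10 and XXbac-BPG252P9.9 ranked 3, 4 and 10 of all rows, whereas GAPDH, TUBA1B and TUBB ranked 338, 2489 and 1823.

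In percent of the library total, RP5-940J5.9 took 3.30% to 4.01%, RP11-386G11.10 2.49% to 4.05% and XXbac-BPG252P9.9 1.01% to 1.46%. GAPDH took 0.0300% to 0.0509%. Per kilobase of annotated exon, the mean level was 64497 counts for RP5-940J5.9 and 137 counts for GAPDH, 5054 for RP11-386G11.10 and 6.06 for TUBA1B, and 11056 for XXbac-BPG252P9.9 and 8.88 for TUBB. The gene row thus held 1.19% of the counts of the GAPDH pair, 0.0926% of the TUBA1B pair and 0.421% of the TUBB pair. Over the 545 pairs of a protein-coding row and a long noncoding row, the noncoding row was higher in 406 (74.5%), the median share of the coding row was 24.8%, and these 3 pairs had the 20th, the 2nd and the 8th lowest share. The library kit was a stranded one, while the strand setting used in counting is not given in the sources used here, and which strand the reads came from was not tested.

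The annotated pseudogenes of these genes held few counts. The 57 annotated GAPDH pseudogene rows together held 0 to 9.02 counts per library, the 33 beta-tubulin pseudogene rows 0 to 14 counts and the 3 alpha-tubulin pseudogene rows 0 counts, which allows up to 3 counts in a library.

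The alpha-tubulin reads were shared between loci. The expected counts of RP11-386G11.10 were whole numbers (within 0.01) in 0 of 18 libraries, and the same held for RP11-161H23.5 (ENSG00000258232), the long noncoding row opposite TUBA1C, a second alpha-tubulin gene. The sum of these rows was whole in 18 of 18 libraries, so that the quantifier divided reads between them. RP11-386G11.10 received 78.1% to 84.7% of the sum, which was 23621 to 36989 counts or 3.19% to 4.78% of the library.

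Over 555 aligned coding bases opposite these noncoding rows, TUBA1B differed from TUBA1C at 28 and from TUBA1A at 9 positions, with identical runs of up to 113 and 215 bases. Levels of RP11-386G11.10 are therefore uncertain to the extent of this division. Results for it are given below also with the counts of the 2 noncoding rows added, a setting chosen after the data were seen.

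RP5-940J5.9, the row opposite GAPDH, was the steadiest of the 3 opposite rows. Scaled by DESeq2 size factors, it was 25351 to 28893 in the neutral line with vehicle and 25593 to 27881 with tamoxifen. In the repressive line it was 25595 to 28106 with vehicle and 25772 to 27108 with tamoxifen, and in the activating line 25233 to 28038 and 23889 to 25717. The group ranges overlapped, except that with tamoxifen the repressive and activating lines were apart, and 2 of the 3 activating libraries lay below every library of the other groups. Its coefficient of variation (CV) over the 18 libraries was 5.30%, the 2nd lowest of the 82 rows whose mean reached 1000 normalized counts, among which the median CV was 12.7%, and counting error alone would give 0.606%. That rank was 6 with the library total as the scale and 7 with size factors from rows without opposite overlap. The highest group mean was 1.10 times the lowest.

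The other opposite rows varied more. XXbac-BPG252P9.9 had a CV of 10.4%, rank 32 of the 82 rows, and RP11-386G11.10 one of 19.6%, rank 65. Their highest group means were 1.26 and 1.65 times the lowest. With the library total as the scale the CVs of RP5-940J5.9, XXbac-BPG252P9.9 and RP11-386G11.10 were 5.69%, 9.75% and 17.4%, and with size factors taken from rows without an opposite-strand overlap they were 8.49%, 13.4% and 22.5%, so that their order was kept. Among the gene rows, GAPDH had a CV of 11.4% (counting error 5.52%), TUBB one of 15.8% (counting error 16.6%) and TUBA1B one of 33.1% (counting error 21.5%). For TUBB, the spread between libraries was thus no larger than counting error.

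**Figure D2:**
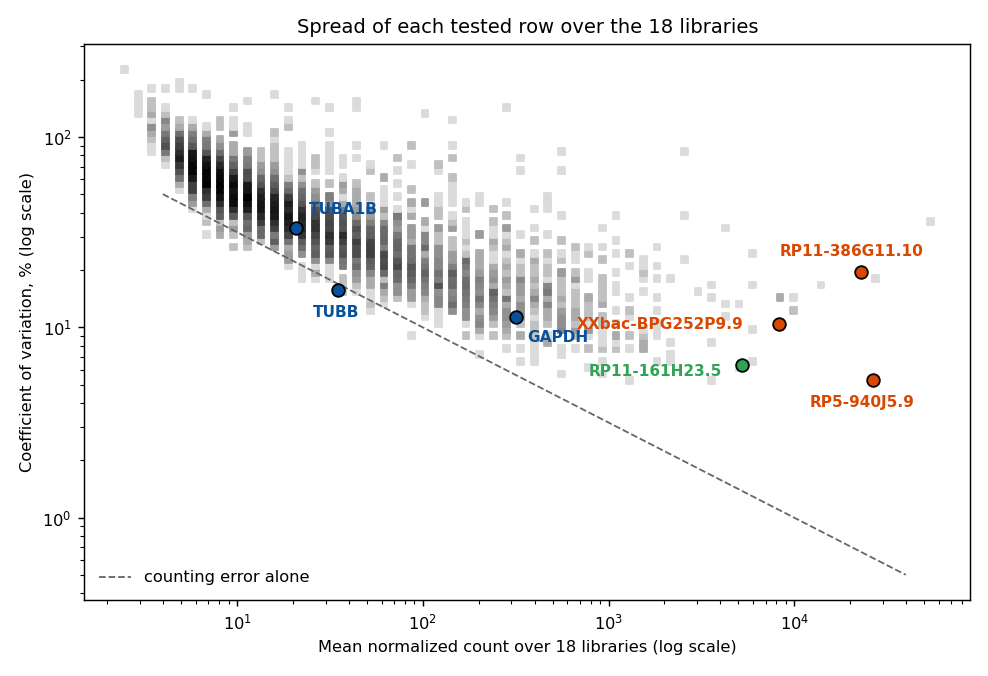
Coefficient of variation over the 18 libraries in percent against the mean normalized count, both on log scales, for all 5816 tested rows (grey, darker where more rows fall), the 3 gene rows (blue), the 3 opposite rows (orange) and RP11-161H23.5 (green); the dashed line is counting error alone. TUBB lies just under the line, and RP11-386G11.10 lies farthest above it among the marked rows, at 19.6% against 0.654%.

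Whether a row was level over the 6 groups was asked with a likelihood ratio test in DESeq2 (Benjamini-Hochberg over all 5816 rows), by which 16.7% of all rows differed. Of the 6 rows, 2 did, RP11-386G11.10 (adjusted p = 2.04e-23) and XXbac-BPG252P9.9 (adjusted p = 4.21e-06). The adjusted p was 0.0869 for GAPDH, 0.460 for RP5-940J5.9, 0.723 for TUBB and 0.783 for TUBA1B. The call for RP5-940J5.9 depended on the scale, since with total-count scaling its adjusted p was 0.0304 and that of GAPDH 0.00225. In percent of the library, RP5-940J5.9 was 3.63% to 3.86% in the repressive line with vehicle and 3.30% to 3.41% with tamoxifen, without overlap.

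RP11-386G11.10, opposite TUBA1B, rose with tamoxifen in the repressive and in the activating line. Its normalized counts in the repressive line were 26172, 20924 and 21622 with vehicle and 30200, 30674 and 32227 with tamoxifen. In the activating line they were 20569, 18795 and 18558 with vehicle and 22929, 21590 and 26850 with tamoxifen, and in the neutral line 19281, 18069 and 19142 with vehicle and 20449, 20850 and 21217 with tamoxifen. In each line every tamoxifen library was above every vehicle library, and the repressive tamoxifen libraries were above all others of the study.

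For RP11-386G11.10 tamoxifen changed the log2 level by 0.44 (SE 0.076) in the repressive line, with an adjusted p of 4.63e-07 by DESeq2, where 9.65% of all rows were called. It was 0.30 (SE 0.076, adjusted p = 0.00207) in the activating line, where 2.8% were called, and 0.15 (SE 0.076, adjusted p = 0.345) in the neutral line, where 0.774% were called. No other of the 6 rows was called in any of these comparisons. In the neutral line 0 of the 6 had an unadjusted p under 0.05 and edgeR called 0, and TUBA1B and TUBB had no adjusted p there or in the activating line, because DESeq2 sets rows of low count aside. With the rows opposite TUBA1B and TUBA1C added, the fold changes were 0.40 (SE 0.070, adjusted p = 4.85e-07) and 0.25 (SE 0.070, adjusted p = 0.00656). The call in the activating line was lost without tamoxifen replicate 3 of that line (log2 fold change 0.21, adjusted p = 0.0928) and with size factors from rows without opposite overlap (0.27, adjusted p = 0.135). In the repressive line the call was kept under every alternative run, with log2 fold changes of 0.30 under total-count scaling, which moved all rows of that comparison by -0.13, and 0.51 with size factors from rows without opposite overlap.

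RP11-161H23.5, opposite TUBA1C, also rose in the repressive line, by 0.22 in log2 (SE 0.050, adjusted p = 0.000227), but with total-count scaling this was 0.09 (adjusted p = 0.269). The share of the alpha-tubulin sum that went to RP11-386G11.10 in the repressive line was 82.0% ± 1.35 with vehicle and 84.2% ± 0.461 with tamoxifen (SD, n = 3), and in the activating line 79.6% ± 0.546 and 82.2% ± 1.08. The part of this division in the result was not tested beyond adding the rows.

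RP5-940J5.9 and XXbac-BPG252P9.9 had small tamoxifen effects. For XXbac-BPG252P9.9 they were 0.09 (SE 0.068), 0.06 (SE 0.068) and 0.05 (SE 0.068) in the neutral, repressive and activating line, with adjusted p between 0.577 and 0.773, and the value in the repressive line was -0.07 with total-count scaling. For RP5-940J5.9 they were -0.05 (SE 0.059), -0.02 (SE 0.059) and -0.13 (SE 0.059), with adjusted p of 0.798, 0.884 and 0.176. With total-count scaling the value of RP5-940J5.9 in the repressive line was -0.16 (adjusted p = 0.0280).

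GAPDH, the gene row, had 311, 247 and 239 normalized counts with tamoxifen in the repressive line and 330, 340 and 333 with vehicle. The groups did not overlap, and the difference was -0.33 in log2 (SE 0.12), with a DESeq2 adjusted p of 0.0512, just outside the threshold. Over the alternatives the value ran from -0.46 to -0.25 and the adjusted p from 0.00326 to 0.267. It was inside the threshold under total-count scaling (-0.46, adjusted p = 0.00326), without a filter on low counts (adjusted p = 0.0471) and without tamoxifen replicate 1 of this line (-0.46, adjusted p = 0.00699). It came just inside without a library of another line, namely tamoxifen replicate 2 or 3 of the neutral line (adjusted p = 0.0494 and 0.0477) or 3 of the activating line (0.0496). It was outside with edgeR (adjusted p = 0.0913), with size factors from rows without opposite overlap (-0.27, adjusted p = 0.195) and without tamoxifen replicate 3 of the repressive line (-0.25, adjusted p = 0.267). In the neutral line the value was 0.20 (SE 0.12, adjusted p = 0.441), and in the activating line -0.09 (SE 0.12, adjusted p = 0.730).

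**Figure D3:**
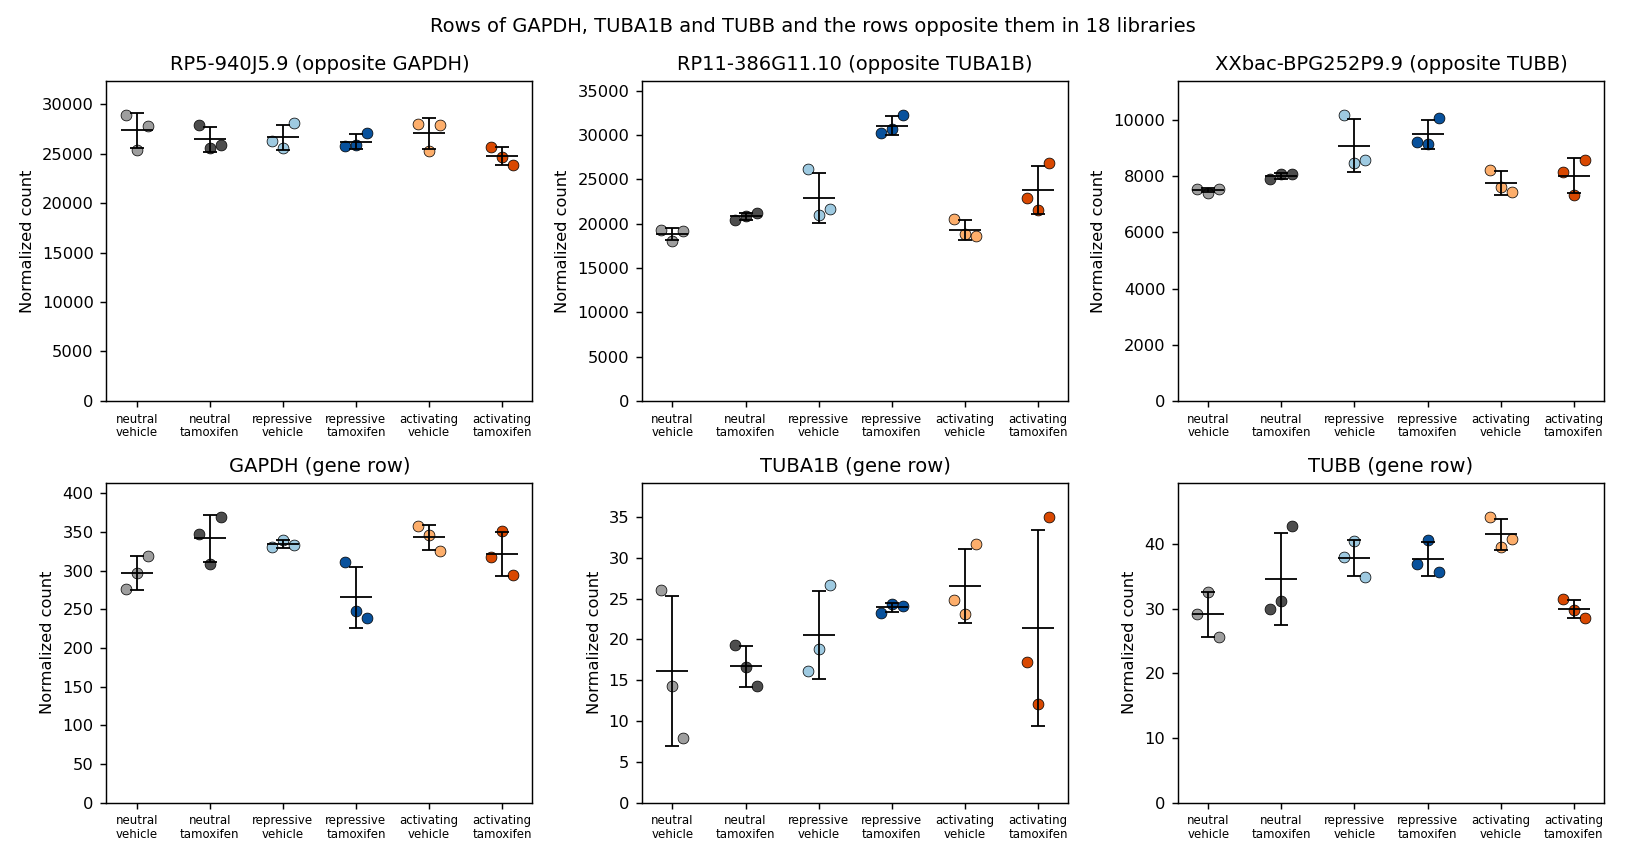
Normalized count of each row by group (upper panels the opposite rows, lower panels the gene rows); points are libraries, horizontal bars the mean and whiskers the SD of 3. The axes start at 0 and differ between panels. RP11-386G11.10 is highest in the repressive line with tamoxifen, at 30200 to 32227.

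The differences of the tamoxifen effects between lines were tested as interactions. For the repressive minus the neutral line, 3.85% of rows were called, and of the 6 rows only GAPDH was, at -0.53 (SE 0.17, DESeq2 adjusted p = 0.0299). By edgeR the GAPDH value was -0.52 (adjusted p = 0.103), so this call rested on the tool. It was also lost without independent filtering (adjusted p = 0.0518), with size factors from rows without opposite overlap (adjusted p = 0.152) and without any 1 of 6 libraries, namely replicates 1 and 2 of the neutral line with vehicle, 1 and 3 of the neutral line with tamoxifen and 2 and 3 of the repressive line with tamoxifen (adjusted p up to 0.130). For RP11-386G11.10 the same difference was 0.29 (SE 0.11, adjusted p = 0.0782 by DESeq2 and 0.0436 by edgeR), and 0.43 (adjusted p = 0.0398) with size factors from rows without opposite overlap. By DESeq2 it also came inside the threshold without vehicle replicate 1 of the repressive line (0.40, adjusted p = 0.00107). The same held without tamoxifen replicate 2 or 3 of the activating line (adjusted p = 0.0496 and 0.0267), so this call turned on single libraries. For the activating minus the neutral line (0.619% of rows) and the activating minus the repressive line (4.25% of rows) none of the 6 rows was called by DESeq2 or by edgeR, and 0 had an unadjusted p under 0.05. For RP11-386G11.10, the difference of the activating from the repressive line was -0.14 (SE 0.11).

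**Figure D4:**
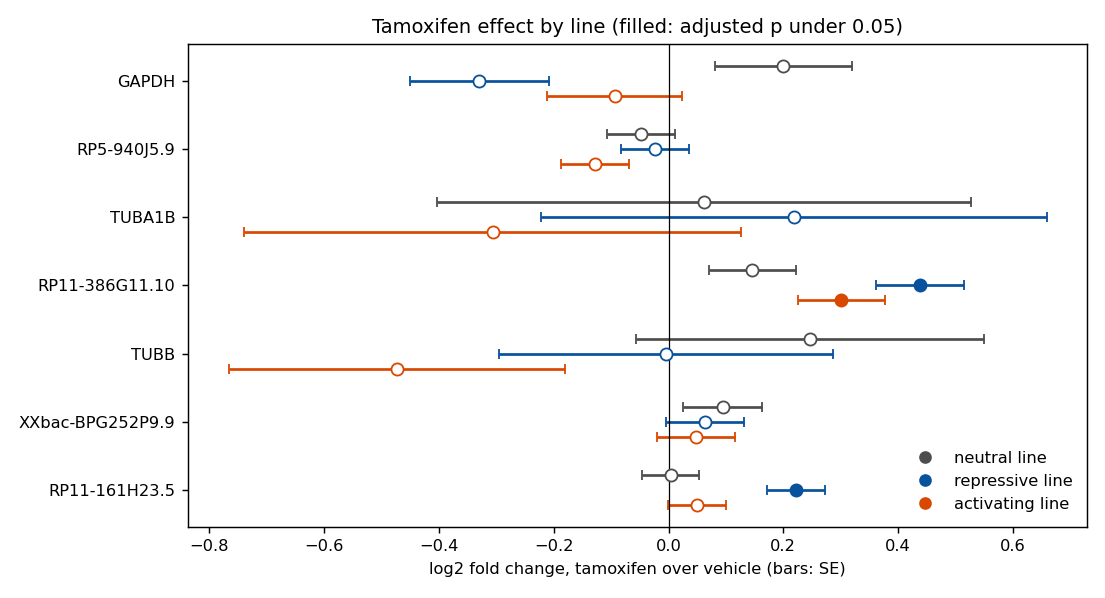
Log2 fold change of tamoxifen over vehicle with its SE for the 6 rows and RP11-161H23.5 in the neutral (grey), repressive (blue) and activating (orange) line, filled where the DESeq2 adjusted p was under 0.05. The filled points are RP11-386G11.10 in 2 lines and RP11-161H23.5 in the repressive line.

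Both tubulin-opposite rows were higher in the repressive line before tamoxifen. Between the vehicle groups of the repressive and the neutral line, where 2.51% of rows were called, RP11-386G11.10 differed by 0.28 (SE 0.076, adjusted p = 0.00909) and XXbac-BPG252P9.9 by 0.28 (SE 0.068, adjusted p = 0.00284). Between the activating and the repressive line (1.72% of rows), which shares the repressive vehicle libraries with the first comparison, they differed by -0.25 (adjusted p = 0.0423) and -0.23 (adjusted p = 0.0333). Between the activating and the neutral line (0.808% of rows), none of the 6 was called by either tool, and 0 had an unadjusted p under 0.05.

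These vehicle differences leaned on the first vehicle library of the repressive line. XXbac-BPG252P9.9 had 10166 normalized counts there, against 8484 and 8587 in the other two, and 7415 to 7548 in the neutral line. Without that library the difference from the neutral line was 0.19 (adjusted p = 0.0862) for XXbac-BPG252P9.9 and 0.18 (adjusted p = 0.194) for RP11-386G11.10, and both were also lost with size factors from rows without opposite overlap (adjusted p of 0.148 and 0.171). For RP11-386G11.10 it was lost as well without the second vehicle library of the neutral line (adjusted p = 0.0847). The differences from the activating line were lost for both rows without vehicle replicate 1 of the repressive line (-0.14 and -0.14) or vehicle replicate 2 or 3 of the activating line, under total-count scaling, with size factors from rows without opposite overlap and without independent filtering. For RP11-386G11.10 that call was also lost without a filter on low counts, without tamoxifen replicate 3 of the neutral or 2 of the repressive line and with the alpha-tubulin rows added (adjusted p = 0.0988).

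The row and the row opposite were then compared directly. The log2 ratio of the opposite row to the gene row, which needs no scaling between libraries, was tested over the 6 groups with limma for all 1193 pairs, of which 6.96% were called. None of the 3 pairs was, with an adjusted p of 0.251 for GAPDH, 0.746 for TUBA1B and 0.857 for TUBB, and 1 of the 3, GAPDH, had an unadjusted p under 0.05 (0.0491). The share of GAPDH in the counts of its pair was lowest in the repressive line with tamoxifen, at 1.00% ± 0.166 (SD, n = 3), and 1.08% to 1.28% in the means of the other groups. The precision of the tubulin ratios was low, since the SE of a tamoxifen effect was 0.47 for the TUBA1B pair.

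Over the 18 libraries, the normalized levels of the gene row and of the opposite row were not detectably related. Pearson's r of log2(normalized count + 1) was -0.02 for the GAPDH pair (permutation p = 0.930, adjusted over the 1193 pairs 0.991), 0.29 for the TUBA1B pair (permutation p = 0.240, adjusted 0.721) and 0.33 for the TUBB pair (permutation p = 0.186, adjusted 0.681). Spearman's rho was 0.07, 0.17 and 0.29 (permutation p = 0.801, 0.497 and 0.241). Without the 2 libraries farthest from the median of the gene row, r was 0.00, 0.20 and 0.29. Of all pairs, 1.84% were called, and the median r was 0.08.

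Within the lines (6 libraries each) r ran from -0.24 to 0.44 for the GAPDH pair, from 0.08 to 0.24 for the TUBA1B pair and from -0.21 to 0.53 for the TUBB pair. In percent of the library, r of the GAPDH pair was 0.52 (permutation p = 0.0258), so that its sign depended on the scaling. With 21.6 and 36.2 counts in the mean, TUBA1B and TUBB carried large counting error, and the size of relation that these counts could show was not tested.

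The opposite rows were compared with each other and with all 5815 other tested rows. RP11-386G11.10 and XXbac-BPG252P9.9, which lie on different chromosomes, moved together, with r = 0.86 over 18 libraries (permutation p = 2e-05, adjusted over all rows 0.00204) and rho = 0.81 (permutation p = 0.00016). The r was 0.81 without the 2 libraries farthest from the median, 0.97, 0.69 and 0.73 within the neutral, repressive and activating line, and 0.93 for deviations from the group means. By the same test 10.1% of all rows were called against RP11-386G11.10, and XXbac-BPG252P9.9 had the 21st highest r. The permutations ran over all 18 libraries regardless of group, so these p-values include differences between groups.

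RP5-940J5.9 followed neither, with r = -0.27 against RP11-386G11.10 (permutation p = 0.283, adjusted over all rows 0.898) and -0.07 against XXbac-BPG252P9.9 (permutation p = 0.792, adjusted 0.979). Spearman's rho was -0.14 (permutation p = 0.587) and 0.10 (permutation p = 0.700). No tested row was called against RP5-940J5.9 (0% of 5815), although 352 had an unadjusted permutation p under 0.05. RP11-386G11.10 and RP11-161H23.5, between which reads were divided, had r = 0.81 (permutation p = 0.00017, adjusted 0.00655, rho = 0.59 with permutation p = 0.0108). The r was 0.64 without the 2 libraries farthest from the median, and 0.36, 0.96 and 0.83 within the neutral, repressive and activating line. For deviations from the group means it was 0.77.

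**Figure D5:**
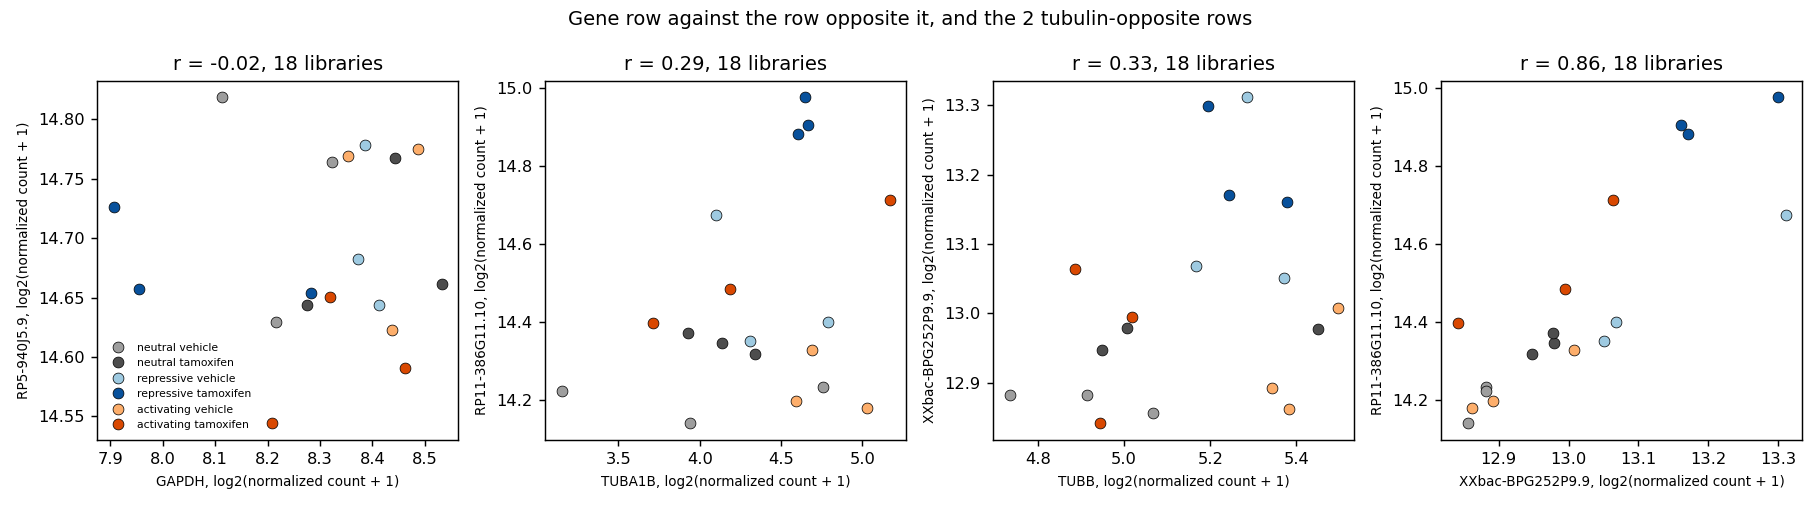
Log2(normalized count + 1) of each gene row (x axis) against the row opposite it (y axis), and of XXbac-BPG252P9.9 against RP11-386G11.10 in the last panel, for 18 libraries coloured by group. The r is -0.02, 0.29 and 0.33 for the 3 pairs and 0.86 for the tubulin-opposite rows.

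The rows most like each opposite row, among the 1458 rows averaging 50 or more normalized counts, are named with what lies opposite them. For RP11-386G11.10 they were RP11-875O11.1 (r = 0.96, opposite RHOBTB2), ZACN (r = 0.94, opposite EXOC7) and TAF10 (r = 0.94, opposite ILK). For XXbac-BPG252P9.9 they were ENOSF1 (r = 0.91, opposite TYMS), RP11-875O11.1 (r = 0.89) and BASP1 (r = 0.87, opposite AC091878.1). For RP5-940J5.9 they were PCCB (r = 0.83, opposite STAG1), RUVBL1 (r = 0.76, opposite SEC61A1) and LRRC37A4P (r = 0.69, opposite RP11-798G7.6). These correlations are over 18 libraries that share their groups and are given as descriptions.

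Most glycolysis genes had no tested row on the other strand. Of 21 tested glycolysis rows 4 had a higher row opposite, GAPDH, ENO3, PGAM2 and ALDOC. The last 3 are named here after their values were seen. These 4 were the only rows of the list with a tested opposite row, and in all 4 it was the higher. The filter leaves out opposite rows of few counts, so these 4 cannot show which row is usually higher. The other tested rows with an annotated opposite row were HK1, PFKM, TPI1, GAPDHS and ENO1. There the opposite row was the lower, at means of 0, 1.83, 5.44, 0.5 and 0 counts. ENO3 and PGAM2 faced PFN1 (175 counts) and DBNL (32.7 counts). In the whole list, tested or not, 11 rows had any opposite row in the annotation. PKM (101 counts), SLC2A1 (99.8 counts) and ALDOA (80.9 counts), the most abundant after GAPDH, had none in the annotation. For ENO1 (52.0 counts) the opposite row ENO1-AS1 had 0 counts in every library. PKM, ALDOA and ENO1 encode pyruvate kinase, aldolase and enolase, and SLC2A1 the glucose transporter GLUT1. In the neutral, repressive and activating line 0 of the 21 rows were called by DESeq2 or by edgeR, and 3, 2 and 2 had an unadjusted p under 0.05, where 0.774%, 9.65% and 2.8% of all rows were called by DESeq2. Of their 4 tested opposite rows 1 was called in each line, RP11-192H23.5 opposite ALDOC, also named after its values were seen. Its log2 fold changes were 0.65 (SE 0.18, DESeq2 adjusted p = 0.0163), 0.73 (SE 0.18, adjusted p = 0.000779) and 0.74 (SE 0.18, adjusted p = 0.000888). Over the 21 glycolysis rows the median log2 fold change was 0.21, 0.11 and 0.12, against 0.00, -0.02 and 0.00 over all tested rows. These medians include rows of few counts and wide error, such as LDHA (6.11 counts, 1.57 with SE 1.09 in the neutral line). Over the 4 tested opposite rows the medians were 0.21, -0.09 and -0.17, and a shift of the list as a whole was not tested.

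Of the 9 tested tubulin rows, 5 had a higher row opposite, TUBA1B, TUBB, TUBA1C, TUBA1A and TUBB4B, the last 2 named after their values were seen. For these last 2 the gap was far smaller than for the other rows. TUBA1A had 9.08 counts against 18.6 in TUBA1C, itself a tubulin row, and TUBB4B had 36.5 against 77.6 in FAM166A. TUBB6, a beta-tubulin, was the exception in abundance, with 905 ± 113 counts (SD, n = 18) and 637 in the opposite row AFG3L2, a mitochondrial protease gene. The TUBB6 and AFG3L2 rows share 837 exonic bases on opposite strands, and which strand their reads came from was not tested. The TUBB6 row fell with tamoxifen in the repressive line, by 0.29 on the log2 scale (SE 0.079, adjusted p = 0.00369), while the AFG3L2 row rose by 0.51 (SE 0.091, adjusted p = 6.95e-07). TUBA4A (52.9 counts) and TUBB4B (36.5 counts) had log2 fold changes of -0.61 (SE 0.30, adjusted p = 0.187) and 0.56 (SE 0.35, adjusted p = 0.359) there. Of the 9 rows, 1 was called in the repressive line (9.65% of all rows were) and 0 in the neutral and activating lines (0.774% and 2.8% of all rows), where edgeR called 0 and 0 had an unadjusted p under 0.05. Of the 10 tested rows opposite tubulin genes, 4 were called in the repressive line, where 9.65% of all rows were, and were higher with tamoxifen. These were RP11-386G11.10, RP11-161H23.5, AFG3L2 and PSMG4 (opposite TUBB2B), the last of them also named after its value was seen. Reads were divided between RP11-386G11.10 and RP11-161H23.5, so their calls are not separate results, and that of RP11-161H23.5 was lost with total-count scaling. The 10 rows include TUBA1C itself and genes of other families, such as STK16 and ATP5E.

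Among 21 tested reference genes, 4 had a higher row opposite. They were GAPDH, TUBA1B and TUBB, the gene rows of this report, and PPIB, which faced SNX22. These 4 were the only ones with a tested opposite row, since the filter leaves out opposite rows of few counts. The count thus gives no result about reference genes as a set. In the whole list 6 genes had any opposite row in the annotation, and that of ACTG1 had a mean of 0 counts. EEF1A1, an elongation factor and the most abundant row of the list at 448 counts, faced RP11-505P4.7 at a mean of 0.278 counts, and the ribosomal protein rows RPL13A (394 counts), RPL19 (224 counts) and RPS18 (164 counts) faced no row. With tamoxifen in the repressive line 5 of the 21 were called, against 9.65% of all rows. EEF1A1 (-0.74, SE 0.14, adjusted p = 2.12e-06), RPL13A (-0.68, SE 0.12, adjusted p = 9.11e-07), RPS18 (-0.73, SE 0.20, adjusted p = 0.00438) and the ribosomal stalk protein RPLP0 (-0.78, SE 0.20, adjusted p = 0.00159) were lower, and cytoplasmic actin ACTB was higher (0.60, SE 0.18, adjusted p = 0.0124). RPL19 had -0.33 (SE 0.14, adjusted p = 0.118). Total-count scaling moved all rows of this comparison by -0.13, and size factors from rows without opposite overlap by 0.07. These are changes of rows, and which strand their reads came from was not tested. In the activating line ACTB alone was called by DESeq2 (0.59, SE 0.20, adjusted p = 0.0348), where 2.8% of all rows were, and edgeR called 0 of the 21. In the neutral line, where 0.774% of all rows were called, 0 were, with 1 at an unadjusted p under 0.05 and 0 by edgeR. The CVs of EEF1A1, RPL13A, RPL19, RPS18, RPLP0 and ACTB ran from 11.8% for RPL19 to 33.9% for ACTB. All were above the 5.30% of RP5-940J5.9, which had far more counts, and counting error was not removed from this comparison. Some other tested rows of the list had higher CVs, such as B2M with 92.8% at 7.44 counts.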

How the data were processed

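RNA was measured in 18 RWPE1 libraries (6 groups of 3 biological replicates). The deposited values are expected counts per gene, which the authors made with the nf-core/rnaseq workflow and Salmon 1.9.0 on GRCh37 from Illumina Stranded mRNA Prep libraries. The strand setting and annotation release are not given in the sources used here. Expected counts were rounded for tests, and 1.10% of values were not whole. Positions, exons and overlaps came from a GENCODE annotation mapped to GRCh37, later than that of the table, to which 96.1% of rows matched by identifier.

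Rows reaching 10 counts in 3 or more libraries (5816, with 97.6% of counts) were fitted in 1 DESeq2 model (1.42.0, R 4.3.3) with a mean per group, Wald and likelihood ratio tests and adjustment over all tested rows at 0.05. Normalized counts are counts divided by its median-of-ratios size factors. Log ratios (pseudocount 0.5) were tested in limma 3.58.1 over 1193 pairs. Correlations used 100000 permutations, two-sided, and computations outside R used Python with numpy and scipy. Alternatives were edgeR 4.0.16 with TMM, total-count scaling, size factors from 1996 tested rows without opposite overlap, other filters, a replicate block and leaving out each library. The fits were tested on simulated data with 200 changed rows. P-values of the DESeq2, edgeR and limma tests measure the spread between these replicates, and intervals and floors cover counting error only. The permutations for the correlations shuffled all 18 libraries without regard to group. Their p-values therefore also carry differences between the groups. The members, gene lists and naming rule (the 3 most alike rows with a mean of at least 50, the 5 most abundant rows of each list and up to 5 called ones) were chosen with earlier results of these data known.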

Additional observations from a re-analysis of the deposited data

Results flagged for a closer look

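The tamoxifen effects of 2 rows differed between the repressive and the neutral line by the interaction test in DESeq2. For GAPDH the difference of log2 fold changes was -0.53 (SE 0.17, adjusted p = 0.0299), with a lower value in the repressive line, and over its alternatives the adjusted p lay between 0.00423 and 0.152. For RP11-161H23.5, the row opposite TUBA1C, it was 0.22 (SE 0.071, adjusted p = 0.0340), with a higher value in the repressive line, and 0.09 (adjusted p = 0.528) with total-count scaling. The call of RP11-161H23.5 was also lost with edgeR (adjusted p = 0.136), without independent filtering (adjusted p = 0.0588), with the replicate block (adjusted p = 0.0514) and on leaving out any 1 of 8 libraries, namely vehicle replicates 1, 2 and 3 and tamoxifen replicates 1 and 2 of the neutral line and vehicle replicate 2 and tamoxifen replicates 2 and 3 of the repressive line (adjusted p up to 0.117). The cause was not tested for either.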

How the results depend on the processing

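The effect of RP11-386G11.10 in the repressive line kept its direction and its call under every alternative run. The number of called rows moved more. With edgeR it was 22 for the neutral line (45 in DESeq2), 102 for the activating line (163), 17 for the activating minus neutral difference (36) and 4 for the activating against neutral vehicle lines (47). Without independent filtering it was 26, 22 and 8 for the neutral line, the activating minus neutral difference and the activating against neutral vehicle lines. With size factors from rows without opposite overlap it was 28, 106, 20 and 29 for these comparisons in the order given for edgeR. Total-count scaling gave 29 for the activating against neutral vehicle lines. Leaving out 1 library gave 23 to 53 calls for the neutral line, 94 to 161 for the activating line, 2 to 53 for the activating against neutral vehicle lines, lowest without the third activating vehicle library, and 65 to 106 for the activating against repressive vehicle lines. Without a variance trend, 17 pairs were called by log ratio in place of 83. The r of the GAPDH pair turned from -0.02 to 0.52 in percent of the library, and lay between -0.11 and 0.11 with 1 library left out. The causes of these shifts were not tested. The split into higher and lower calls moved with the scale. In the repressive line it was 327 and 234 in the main analysis, 230 and 381 with total counts and 349 and 167 with size factors from rows without opposite overlap. For the repressive minus neutral difference it was 136 and 88, 92 and 160, and 180 and 44, and for the activating minus repressive difference 95 and 152, 189 and 109, and 43 and 159.

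Within lines, the deviations of libraries with the same replicate number had correlations of -0.48 to 0.14. Libraries with different numbers were not compared, nor were the lines with each other. Whether the numbers mark a pairing or shared handling was therefore not tested. With the replicate block 910 rows in place of 969 differed over the 6 groups, and 39, 538 and 134 were called for tamoxifen in the neutral, the repressive and the activating line. It took away the call of RP11-161H23.5 in the repressive minus neutral difference (0.22, adjusted p = 0.0514) and no call of the 6 rows. Depth limits TUBA1B and TUBB, with means of 21.6 and 36.2 counts.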
